A study of Mus musculus with 16 samples.

Results

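The genes described here are 36 genes of the cell cycle and of DNA replication, measured in microglia sorted from the hippocampus of young and aged mice. They were taken by symbol from the deposited table of normalized counts, and all 36 were found among its 24015 rows. Ages were compared for genes with 10 or more normalized counts in 6 or more of the 12 samples, a filter that kept 35 of the 36 genes and 11579 genes in all. Microglia are the macrophages that live in brain tissue, and they had been sorted as live CD11b-positive cells with low CD45. The young group held 6 samples from mice aged 3 months, and the aged group held 6 from mice aged 20 months. All young samples and aged samples 1 to 4 carry the strain label C57BL/6, aged sample 5 carries C57BL/7, and the libraries of aged sample 6 carry C57BL/8 and C57BL/9. No treatment or genetic change is labelled in either group. Young samples 2 and 4 and aged samples 3 and 6 were each sequenced as 2 technical replicate libraries and have 1 column each. The labels do not tell a single mouse from pooled mice, so a p-value here covers only the spread among samples. The question the design sets for these genes is whether the transcripts of dividing cells differ with age.

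A cell prepares for DNA replication in G1 phase, when the proteins Cdc6 and Cdt1 load the ring-shaped MCM helicase onto replication origins. D cyclins with Cdk4 and Cdk6, and then E cyclins with Cdk2, phosphorylate the Rb protein and so release E2F factors, which switch on replication genes. Cyclins A and B with Cdk1 drive the cell into mitosis, where Aurora and Polo kinases build the spindle and the checkpoint proteins hold back Cdc20 until chromosomes are attached. Most adult microglia are resting cells that renew slowly by division in place. In bulk RNA, fewer dividing cells and less RNA per dividing cell cannot be told apart.

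E2F binding letters mark many replication promoters, while CCAAT boxes (bound by NF-Y) and the cell cycle homology region (CHR) mark many promoters of mitosis genes. To show these letters in place, 4 promoters rich in them are printed, those of Mcm6 and Mcm5 from the replication genes and those of Cdk1 and Top2a from the genes of G2 and mitosis. They were chosen for their matches and do not stand for their groups. Each is the stretch of 250 bases before the gene's start in RefSeq (GRCm38.p6), 5′ to 3′ on the gene's own strand. Capitals mark E2F letters (TTTGGCGC, TTTCCCGC or TTTCGCGC), CCAAT, and CHR letters (TTTGAA or TTCGAA), on either strand. The longest run of capitals in Mcm5 and in Mcm6 holds overlapping E2F matches on both strands. The Mcm6 promoter (chr1:128359706-128359955, minus strand) holds 3 E2F matches and 2 CCAAT boxes, and the Mcm5 promoter (chr8:75109259-75109508, plus strand) holds 2 of each. The Cdk1 promoter (chr10:69352913-69353162, minus strand) holds 1 E2F match, 3 CCAAT boxes and 2 CHR matches. The Top2a promoter (chr11:99024190-99024439, minus strand) holds no E2F match, 6 CCAAT boxes and 4 CHR matches.
Mcm6: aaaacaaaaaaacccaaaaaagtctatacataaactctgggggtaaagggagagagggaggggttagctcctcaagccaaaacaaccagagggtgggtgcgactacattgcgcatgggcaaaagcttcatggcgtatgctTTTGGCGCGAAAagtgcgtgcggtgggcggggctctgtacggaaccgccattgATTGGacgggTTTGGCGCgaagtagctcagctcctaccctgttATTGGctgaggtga
Mcm5: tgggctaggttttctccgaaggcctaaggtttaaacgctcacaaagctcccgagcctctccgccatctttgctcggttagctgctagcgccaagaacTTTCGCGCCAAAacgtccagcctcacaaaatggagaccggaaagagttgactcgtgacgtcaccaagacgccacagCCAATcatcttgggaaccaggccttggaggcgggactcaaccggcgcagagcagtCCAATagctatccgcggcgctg
Cdk1: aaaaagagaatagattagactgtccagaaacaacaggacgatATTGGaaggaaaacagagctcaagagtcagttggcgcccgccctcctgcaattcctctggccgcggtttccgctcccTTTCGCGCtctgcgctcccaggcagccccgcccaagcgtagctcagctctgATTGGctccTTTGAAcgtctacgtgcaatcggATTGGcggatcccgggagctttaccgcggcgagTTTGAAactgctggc
Top2a: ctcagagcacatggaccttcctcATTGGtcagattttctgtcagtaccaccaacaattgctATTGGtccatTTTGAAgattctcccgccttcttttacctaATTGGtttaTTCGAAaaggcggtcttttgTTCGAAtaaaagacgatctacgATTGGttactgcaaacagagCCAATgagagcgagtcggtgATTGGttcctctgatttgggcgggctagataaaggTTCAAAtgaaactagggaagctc

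RefSeq promoters were matched for 28 of the 36 genes, and a gene was counted where any of its promoters held a match; Aurkb, Ccna2, Ccnd1, Ccnd2, Ccne2, Gins2, Mcm4 and Rb1 had no entry. E2F letters stood in 6 of these 28 genes (21.4%), against 1.78% of all 27025 genes with a promoter of the same length, and 4 of the 6 belonged to the 8 matched genes of origin licensing and the fork. CCAAT boxes stood in 20 of 28 (71.4%, against 37.5%). They stood in 6 of 8 matched genes of licensing and the fork, all 3 of the S, G2 and M cyclin group and 5 of 6 of the mitotic kinases, checkpoint and exit. CHR letters stood in 8 of 28 (28.6%, against 19.6%). These were both markers of cycling cells, 2 of 3 of the S, G2 and M cyclin group, 2 of 8 licensing genes and 2 of 6 of the mitotic kinases, checkpoint and exit. A match describes only the letters of the window and says nothing of binding in these cells.

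None of the 35 tested genes was called different between the ages by limma at an adjusted p of 0.05, either higher or lower at 20 months. Over all tested genes 1.27% were called higher and 0.458% lower. At an unadjusted p under 0.05 the count was also 0 of 35, where 10.8% of all tested genes passed. edgeR's quasi-likelihood test and DESeq2, run on the whole reads of the 8 samples with 1 library, likewise gave 0 called genes and 0 with an unadjusted p under 0.05. The ages overlapped in every one of the 35 genes, while 1.87% of all genes had no overlap. Top2a, the topoisomerase that untangles replicated DNA, had the smallest adjusted p (0.498).

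The log2 difference of the 35 genes, 20 minus 3 months, ran from -0.36 (Ccne1) to 0.44 (Plk1), with a median of -0.06 beside 0.0016 for all tested genes. It was positive in 14 genes (40.0%) and negative in 21, while 50.5% of all tested genes were positive. The 95% confidence interval lay within a 2-fold difference in either direction for 32 of the 35 genes, and within 1.5-fold for 19. The tightest bounds were those of abundant genes: for Mcm3, an MCM helicase subunit, the interval of the fold was 0.900 to 1.13. Wide bounds belonged to low genes such as Ccne2, a cyclin E, with an interval of 0.626 to 2.504.

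**Figure D1:**
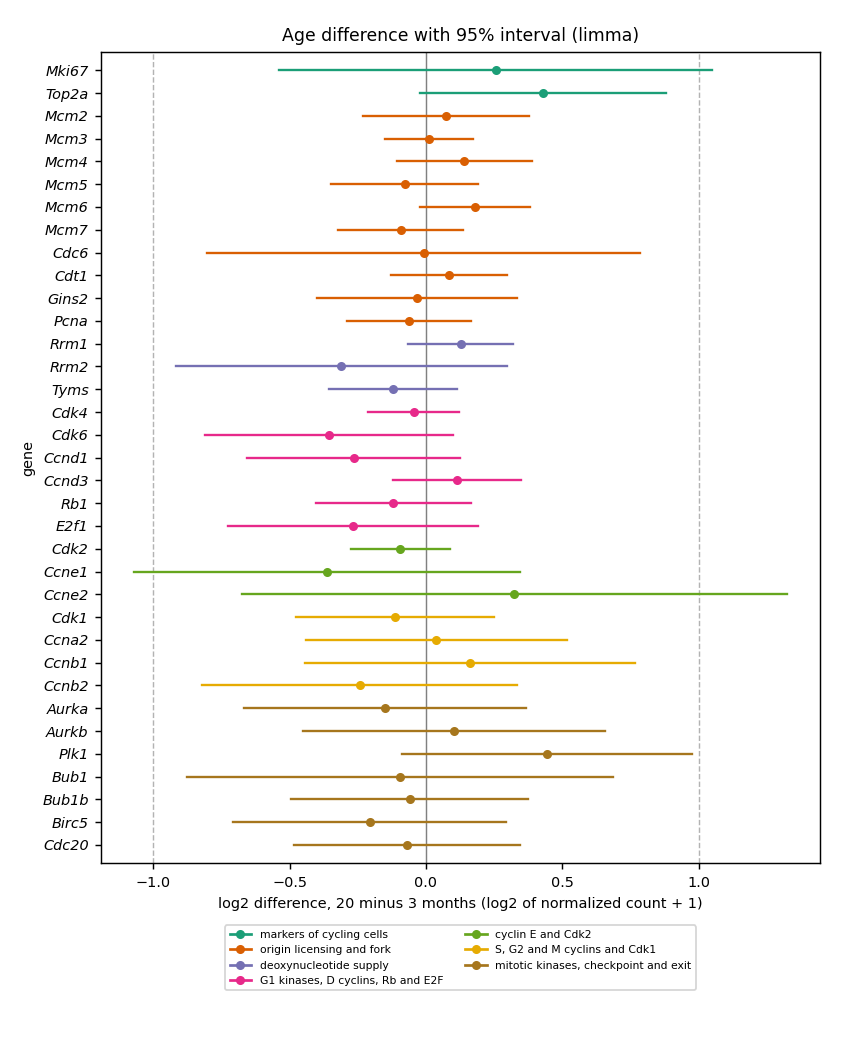
Difference in log2(normalized count + 1) between ages for the 35 tested genes; points are limma estimates for 20 minus 3 months (6 samples per age), lines are 95% confidence intervals, colours mark roles, and dashed lines mark a 2-fold difference. Every interval contains 0, and 32 of 35 lie within the dashed lines.

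Levels differed widely between roles at both ages. Per kilobase of exon, averaged over 12 samples, Cdk4 (1142 normalized counts per kb, percentile 87.6 of tested genes) and Mcm3 (1097, percentile 87.1) stood highest. The median of all tested genes was 213 counts per kb. The 10 genes of origin licensing and the fork had a median of 252 counts per kb. The 4 S, G2 and M cyclin and Cdk1 genes had a median of 25.0, and the 7 genes of the mitotic kinases, checkpoint and exit one of 31.5. Mki67, the standard marker of cycling cells, stood at 5.12 counts per kb, at percentile 3.10, and Top2a at 22.7, at percentile 13.9. The highest gene of the mitotic kinases, checkpoint and exit, Cdc20, reached percentile 26.9.

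**Figure D2:**
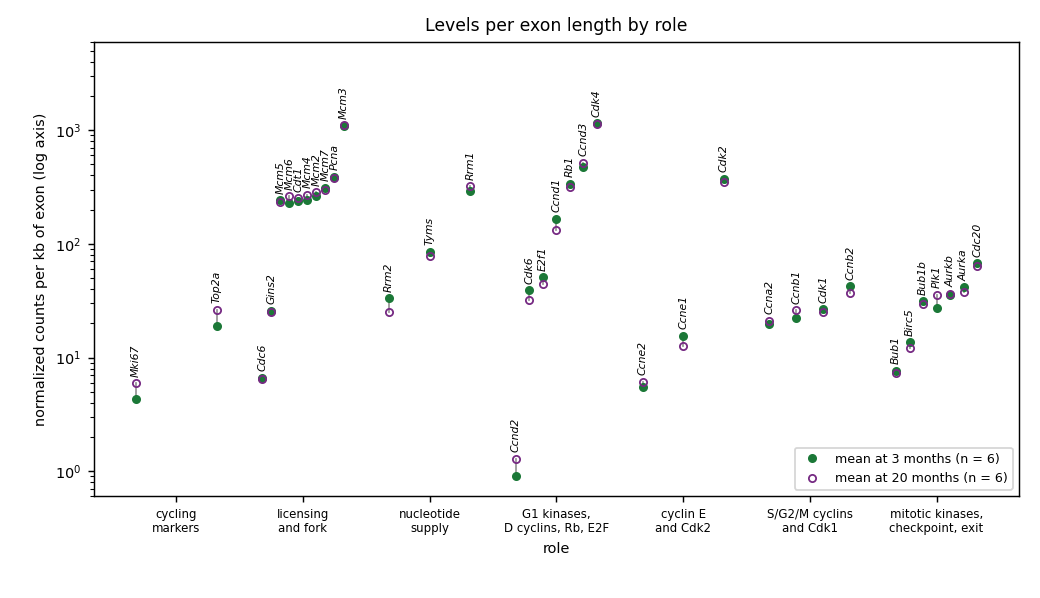
Mean normalized counts per kilobase of exon (log axis) for each of the 36 genes by role, filled points for 3 months and open points for 20 months (6 samples each). Cdk4 and Mcm3 stand highest, at 1142 and 1097 counts per kb over all samples, while the mitosis genes and Mki67 lie far lower at both ages.

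Mki67 (chr7:135689784-135716361, minus strand, GRCm38) encodes a protein that coats mitotic chromosomes and is made in cycling cells. It ranged in young samples from 27.8 to 60.6 normalized counts with a median of 43.3. In aged samples it ranged from 17.7 to 117, with a median of 48.6. Aged samples 4 (117) and 3 (90.2) stood above every young sample and aged sample 6 below every one, so the aged values enclosed the young range. The log2 difference was 0.26 (95% interval -0.54 to 1.05, adjusted p = 0.895), a fold of 1.19. With 1 sample left out at a time the log2 difference of Mki67 ran from 0.01 (without aged sample 4) to 0.55 (without aged sample 6). It was 0.60 in the 8 samples with 1 library, 0.61 without aged samples 5 and 6, and 0.75 by edgeR and by DESeq2 on the reads of the 8 samples, none past the threshold. Top2a ranged from 66.8 to 120.3 in young samples (median 103) and from 83.02 to 213 in aged samples (median 127). Aged samples 3, 4, 5 and 6 lay above the highest young value and aged samples 1 and 2 within the young range. Its log2 difference was 0.43 (-0.02 to 0.88, adjusted p = 0.498), a fold of 1.35. With 1 sample left out at a time the log2 difference of Top2a ran from 0.29 (without aged sample 4) to 0.56 (without aged sample 1, adjusted p = 0.277).

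The MCM subunits Mcm2 to Mcm7 form the ring that unwinds DNA. Mcm6 ranged from 909.7 to 1058 normalized counts in young samples (median 1009) and from 963 to 1396 in aged samples (median 1070.1). Aged samples 1, 2, 3 and 6 stood above all young samples, samples 2 and 6 only just, and aged samples 4 and 5 fell among them. Its log2 difference was 0.18 (-0.02 to 0.38, unadjusted p = 0.075, adjusted p = 0.539), the smallest unadjusted p of this group. Mcm4 ranged from 757 to 1072 in young samples (median 856) and from 758 to 1279 in aged samples (median 936), with a log2 difference of 0.14 (adjusted p = 0.790). Only aged sample 3 exceeded the young range. The other helicase subunits had log2 differences of 0.07 (Mcm2), 0.01 (Mcm3), -0.08 (Mcm5) and -0.09 (Mcm7), none past the threshold. Mcm3 was the most abundant of them per length, at 1097 counts per kb, and Mcm2, Mcm4, Mcm5, Mcm6 and Mcm7 lay between 237 and 304.

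Of the proteins that act with the helicase, Pcna is the clamp that holds DNA polymerase on its template. It ranged from 514 to 638 normalized counts in young samples (median 611) and from 440.2 to 634 in aged samples (median 609), with aged samples 5 and 4 at the low end. Its log2 difference was -0.06 (-0.29 to 0.17, adjusted p = 0.916). The loader Cdt1 had a log2 difference of 0.08 and Gins2, a subunit of the active helicase complex, one of -0.03. Cdc6, the other loader, was far lower at 6.58 counts per kb, with values from 13.3 to 61.4 over all samples and an interval of the fold from 0.573 to 1.72.

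Deoxynucleotides are made by ribonucleotide reductase, whose large subunit is Rrm1 and whose small, S-phase subunit is Rrm2, and by thymidylate synthase, Tyms. Rrm1 ranged from 986 to 1383 normalized counts in young samples (median 1188) and from 1115 to 1471 in aged samples (median 1278). Its log2 difference was 0.13 (-0.06 to 0.32, adjusted p = 0.732), with aged sample 3 alone above the young range. Tyms ranged from 240.4 to 289 in young samples (median 269) and from 218 to 293 in aged samples (median 245). Aged samples 3 and 4 lay below every young sample and aged sample 1 above every one, and the log2 difference was -0.12 (-0.36 to 0.11, adjusted p = 0.810). Per length, Rrm2 stood at 29.4 counts per kb, against 308 for Rrm1. Young sample 1 held 147 counts of Rrm2 against 41.6 to 76.4 in the other young samples. It was the shallowest of the 8 samples with 1 library. The log2 difference of Rrm2 was -0.31 (adjusted p = 0.816), and -0.09 without that sample.

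**Figure D3:**
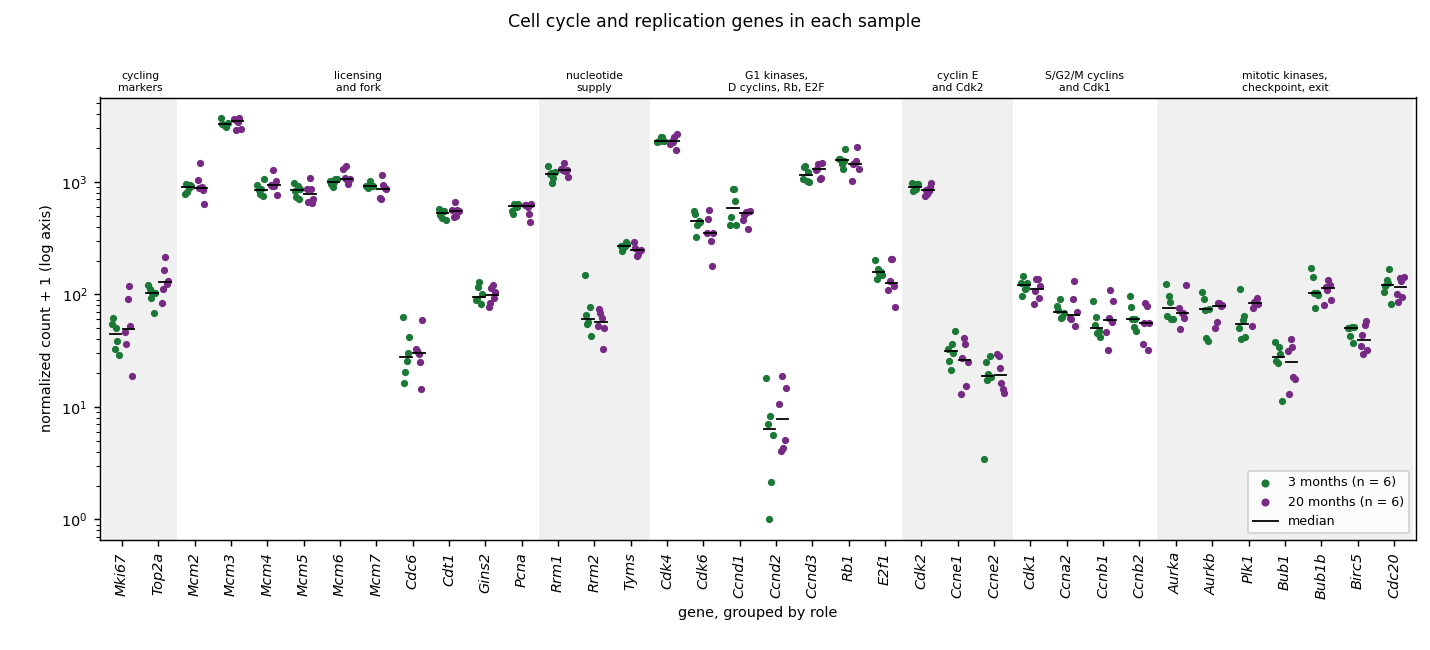
Normalized count plus 1 (log axis) of the 36 genes in each sample, grouped by role; points are single samples at 3 and 20 months (6 each) and bars are medians. The clouds of the ages overlap in every gene, and Ccnd2 falls to 0 counts in 1 young sample.

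Among the G1 genes, Cdk4, the main kinase partner of D cyclins, ranged from 2281 to 2518 normalized counts in young samples (median 2328) and from 1927 to 2686 in aged samples (median 2292). The aged values again enclosed the young ones, and the log2 difference was -0.04 (-0.21 to 0.12, adjusted p = 0.916). Cdk6, the second such kinase, ranged from 323 to 555 in young samples (median 447) and from 179 to 567 in aged samples (median 351). Aged sample 5 held the lowest value and aged sample 3 the highest of all 12. The log2 difference was -0.36 (-0.81 to 0.10, adjusted p = 0.645). Rb1, the retinoblastoma protein that holds E2F in check, ranged from 1297 to 1958 in young samples (median 1573) and from 1010.1 to 2054 in aged samples (median 1457), with aged sample 1 lowest and aged sample 5 highest. Its log2 difference was -0.12 (-0.40 to 0.17, adjusted p = 0.860). E2f1, a factor released by Rb, had a log2 difference of -0.27 (adjusted p = 0.781), with means of 161 and 140.5.

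The D cyclins were unequal. Ccnd3 ranged from 997 to 1386 normalized counts in young samples (median 1142) and from 1053 to 1462 in aged samples (median 1294), with a log2 difference of 0.11 (-0.12 to 0.35, adjusted p = 0.825). Ccnd1 ranged from 415 to 870 in young samples (median 582) and from 379 to 549 in aged samples (median 524), with a log2 difference of -0.27 (-0.66 to 0.13, adjusted p = 0.723). Young samples 3, 4 and 5 held its 3 high values and the other 3 young samples lay within the aged range. Ccnd2 did not pass the filter: it ranged from 0 to 17.2 in young samples (median 5.32) and from 3.02 to 18.01 in aged samples (median 6.81), from 0 to 11 reads per sample where reads could be recovered. Corrected for exon length, Ccnd3 made up 64.3 to 80.9% of D cyclin transcripts in young samples and 74.8 to 81.2% in aged samples. Ccnd1 made up 18.9 to 35.5% in young and 18.7 to 25.1% in aged samples, highest in young samples 4 and 3.

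Cyclin E with Cdk2 starts S phase. Cdk2 ranged from 833 to 970.0 normalized counts in young samples (median 907) and from 745 to 981 in aged samples (median 845), with a log2 difference of -0.09 (-0.28 to 0.09, adjusted p = 0.812). Its partners were low. Ccne1 ranged from 20.2 to 46.3 in young samples (median 30.7) and from 12.1 to 40.2 in aged samples (median 25.1). Aged samples 1 and 5 held its lowest values and young sample 6 the highest, and the log2 difference was -0.36 (-1.07 to 0.34, adjusted p = 0.816). Ccne2 had means of 17.6 and 19.7 and a log2 difference of 0.32 (adjusted p = 0.894). Young sample 1 held 1 read of it. Its coefficient of variation over the 8 samples with 1 library was 52.5%. Counting error estimated from the observed reads was 41.0%, a value on which the 1 read of young sample 1 weighs heavily.

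Cdk1, the kinase that drives mitosis, ranged from 95.7 to 145 normalized counts in young samples (median 119) and from 81.3 to 137 in aged samples (median 112). Aged sample 1 held the lowest value and young sample 3 the highest, and the log2 difference was -0.11 (-0.48 to 0.25, adjusted p = 0.899). Its partner Ccnb2 ranged from 46.3 to 95.8 in young samples (median 59.7) and from 30.8 to 83.3 in aged samples (median 55.1). Young sample 1 was highest and aged samples 5 and 1 lowest, with a log2 difference of -0.24 (-0.82 to 0.33, adjusted p = 0.860). Ccna2, cyclin A, and Ccnb1, the other mitotic cyclin B, had log2 differences of 0.04 and 0.16. Without aged sample 4, which held the highest value of both, their folds went from 1.03 to 0.914 and from 1.12 to 0.994.

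Plk1 (chr7:122159439-122169873, plus strand, GRCm38), the Polo kinase of mitotic entry, had the largest estimate of the 35 genes. It ranged from 39.1 to 111 normalized counts in young samples (median 53.4) and from 51.0 to 92.3 in aged samples (median 83.2). Young sample 2 stood above every aged sample, aged samples 2 to 6 stood above the other 5 young samples, and aged sample 1 fell among these. The log2 difference was 0.44 (-0.09 to 0.98, unadjusted p = 0.096, adjusted p = 0.595), and 0.64 without young sample 2 (adjusted p = 0.268). Birc5, survivin, which guides chromosome attachment, ranged from 36.2 to 50.9 in young samples (median 49.4) and from 28.7 to 57.5 in aged samples (median 38.0). Aged samples 1, 3 and 6 lay below every young sample and aged samples 4 and 5 above every one, with a log2 difference of -0.21 (-0.71 to 0.29, adjusted p = 0.862). The Aurora kinases differed by -0.15 (Aurka) and 0.10 (Aurkb), the checkpoint kinase Bub1 by -0.10, its relative Bub1b by -0.06 and the checkpoint's target Cdc20 by -0.07, all on the log2 scale. Adjusted p-values of these 5 genes were between 0.909 and 0.962.

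The spread among samples was larger at 20 months in most of these genes, as in most of all tested genes. The SD of the log2 values was larger among aged than among young samples in 25 of the 35 genes (71.4%), where 60.3% of all tested genes showed this order. Of the mitotic kinases, checkpoint and exit only 3 of 7 genes showed it. For Plk1 the coefficient of variation was 44.4% in young and 18.7% in aged samples, and for Ccnd1 34.4% and 13.5%. For Mki67 the coefficient of variation was 30.1% in young and 62.3% in aged samples, and for Mcm2 7.94% and 29.0%. Counting error was smaller than this spread: over the 8 samples with 1 library, Mki67 varied by 47.4% within ages, where its reads alone would give 15.8%. For Birc5 and Tyms the values were closer, 19.4% against 15.5% and 8.22% against 6.48%. Counting error here assumes independent reads, which amplified libraries without molecular identifiers do not give.

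Aged samples 3 and 4 stood high in many of the 35 genes. Aged sample 3 held the highest value of 10 of the 35 genes, where 6.06% of all tested genes were highest there. These included 6 of the 10 genes of origin licensing and the fork, 9 of which were above their 12-sample mean, and their summed counts were 11276 there against 8330 to 9799 in the other 11 samples. It was also above the mean in 11 of 13 genes of G2, mitosis and the cycling markers. Aged sample 4 was above the mean in 12 of these 13 genes, and highest in Mki67, Top2a, Ccna2 and Ccnb1, while only 5 of its 10 licensing genes were above the mean. Young sample 1 was highest in 7 of the 35 genes, 4 of them among the 13, where 12.7% of all tested genes were highest in that sample. Its 11.4 M reads were the fewest of the 8 samples with 1 library. Aged sample 5 was lowest in 9 of the 35 genes. The share of all tested genes lowest there was not counted, and 16.1% of them were highest there. The summed counts of the 13 genes ran from 823 to 1196 in young samples and from 771 to 1366 in aged samples.

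**Figure D4:**
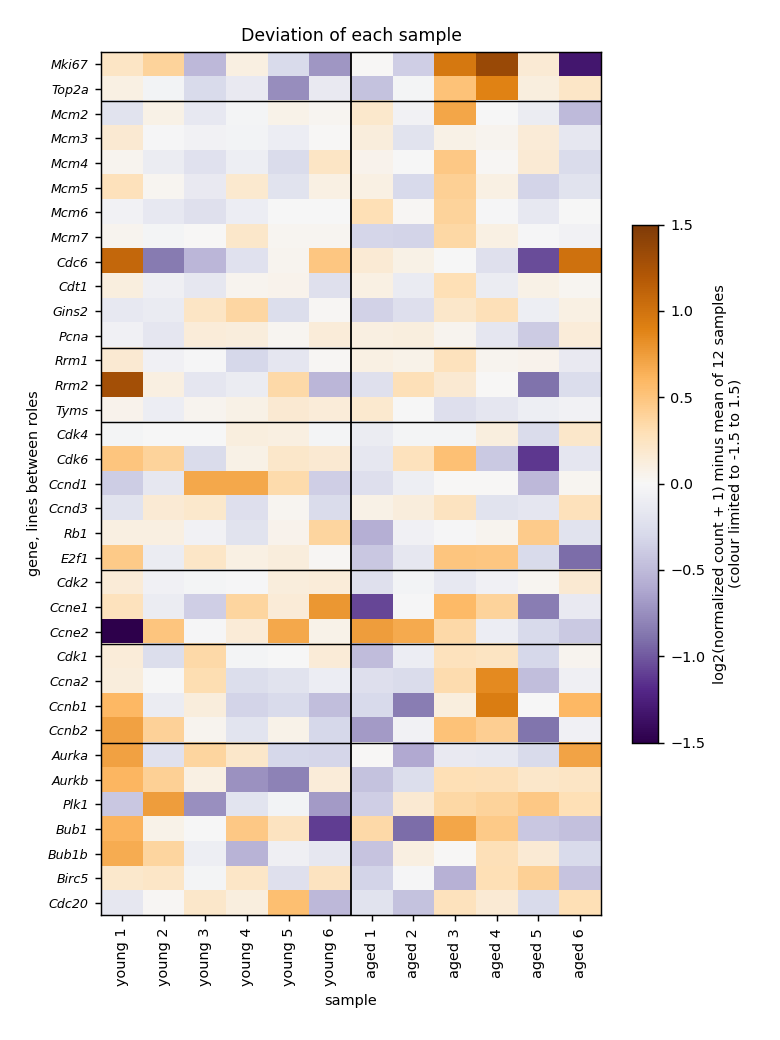
Deviation of log2(normalized count + 1) from the 12-sample mean for 35 genes (rows, lines between roles) in each sample (columns, a line between ages), with colours limited at 1.5 in either direction. Aged sample 3 is above the mean in 9 of 10 licensing genes and 11 of 13 genes of mitosis and cycling, and aged sample 4 in 5 and 12 of them.

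Markers of other cells were followed across the same samples. The 8 microglia markers summed to between 1539800 and 1937700 normalized counts per sample, and their least abundant value was 21713. The 6 neutrophil markers summed to 271 in aged sample 4 and to 5.09 to 38.6 in the other 11 samples. In aged sample 4 Ngp, a granule protein of neutrophil precursors, stood at 162 counts against at most 21.5 elsewhere, S100a8 at 43.9 and S100a9 at 45.0, while Retnlg and Mmp8 stayed under 10. This sample also held the highest Mki67 and Top2a, and the part of these cells in those values was not tested. Neutrophils carry high CD45 and the gate took cells with low CD45, but how many neutrophils passed it was not measured. Of 8 markers of neural progenitors and neuroblasts, a dividing lineage of the hippocampus, Dcx and Igfbpl1 were at 0 in every sample and the 8 summed to at most 7.17. The 6 markers of oligodendrocyte precursors summed to 3.39 to 22.1 in young and 4.32 to 97.5 in aged samples. Their sum was highest in aged sample 2, where Cspg4 stood at 90.5. Cspg4 alone had means of 1.12 in young and 29.5 in aged samples. The means of Pdgfra, Olig2 and Sox10 were lower in aged samples and those of Olig1 and Lhfpl3 slightly higher, all under 10. The 5 T and NK cell markers found summed to at most 7.18. The 6 choroid plexus markers summed to 266 to 1285 in young and 441 to 3531 in aged samples, highest in aged sample 5, and their part in the low values of that sample was not tested. Border macrophage markers summed to 199 to 368 in young and 150.5 to 651 in aged samples. By limma their median log2 difference was 1.137 over 4 tested, 2 of them at an unadjusted p under 0.05 and 0 called. The differences were positive in 3 of the 4, but that of Mrc1, the most abundant, was -0.27 (adjusted p = 0.856). Monocyte markers summed to 58.9 to 121 in young and 109.9 to 156 in aged samples, highest in aged sample 4. By limma 2 of 3 tested monocyte markers and 2 of 4 tested choroid plexus markers had an unadjusted p under 0.05, and 0 were called. Oligodendrocyte markers summed to 6004 to 7004 in young and 5933 to 7092 in aged samples, and astrocyte markers to 5433 to 6984 and 5580 to 7437. Of the microglia markers Fcrls was called lower at 20 months (log2 difference -0.47, adjusted p = 0.00038), and of the astrocyte markers Aldh1l1 was called higher (1.498, adjusted p = 0.041).

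**Figure D5:**
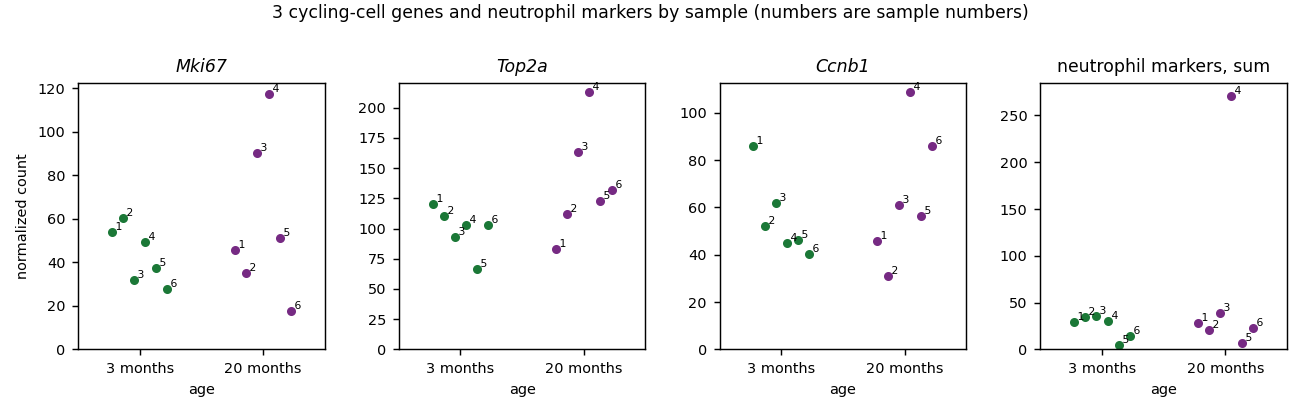
Normalized counts of Mki67, Top2a and Ccnb1 and the sum of 6 neutrophil markers in each sample, by age, with sample numbers beside the points. Aged sample 4 is highest in all 4 panels, with a marker sum of 271 against at most 38.6 in any other sample.

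Pairs of genes were compared across the 12 samples on the log2 scale, in 3 relations with permutation p-values, two-sided. For Mki67 and Top2a, Pearson's r was 0.56 (permutation p = 0.058, adjusted 0.068) and Spearman's rho 0.45 (p = 0.148, adjusted 0.254). Without the 2 samples farthest from the median of Mki67, aged 4 and aged 6, r was 0.65, and within the ages it was 0.45 (young) and 0.59 (aged). For the helicase subunits Mcm2 and Mcm5, r was 0.56 (permutation p = 0.049, adjusted 0.068) and rho 0.36 (p = 0.254, adjusted 0.254). This relation rested on aged samples 3 and 6, since r was 0.05 without them, -0.40 in young samples and 0.82 in aged samples. For Mki67 and Mcm5, r was 0.54 (permutation p = 0.068, adjusted 0.068) and rho 0.41 (p = 0.191, adjusted 0.254). Without aged samples 4 and 6, r was 0.57, and it was 0.47 in young and 0.63 in aged samples. None of the 3 relations passed after adjustment.

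Other genes of the same processes gave the same count. None of 40 further replication genes was called in either direction by limma, 1 of them at an unadjusted p under 0.05, and their median log2 difference was -0.0013. The 2 with the smallest p were Gins1, a subunit of the active helicase complex, at 83.2 ± 11.1 normalized counts in young and 59.7 ± 16.7 in aged samples (SD, n = 6; adjusted p = 0.390), and Tipin, a fork protection protein (adjusted p = 0.536). Young samples held Gins1 values from 69.0 to 96.0, and aged samples from 29.8 to 76.8, so the ages overlapped. None of 34 further mitosis genes was called, 2 at an unadjusted p under 0.05, with a median of 0.07. Among them Cenpf, a kinetochore protein, ranged from 9.13 to 58.9 counts in young samples and from 45.8 to 118 in aged samples. Only aged sample 6 fell within the young range. Its log2 difference was 1.38 (0.55 to 2.21, unadjusted p = 0.0028, adjusted p = 0.103), and it was called only by DESeq2 on the reads of 8 samples (adjusted p = 0.0058). Pttg1, securin, which keeps sister chromatids joined by blocking separase, stood at 621 ± 73.7 and 749 ± 66.6 (SD, n = 6; adjusted p = 0.257).

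Of 30 further regulators of the cycle, 28 were tested, with 0 called by limma and 0 at an unadjusted p under 0.05. The smallest p were those of Ccng2, a cyclin raised in cells that leave the cycle, at 10731 ± 1129 and 9571 ± 731 (SD, n = 6; adjusted p = 0.467), and Lin52, a subunit of the repressor complex of resting cells (adjusted p = 0.671). Of the 8 inhibitors of cyclin-dependent kinases, 7 were tested and 0 called, 2 of them with an unadjusted p under 0.05. Cdkn1a, which encodes the inhibitor known as p21, ranged from 286 to 489 counts in young and from 355 to 697 in aged samples, with a log2 difference of 0.40 (0.04 to 0.75, adjusted p = 0.381). Aged samples 1, 2, 3 and 4 lay above the young range and aged samples 5 and 6 within it. Cdkn2c, an inhibitor of Cdk4 and Cdk6, stood at 131 ± 15.04 in young and 105 ± 18.6 in aged samples (SD, n = 6; adjusted p = 0.461). Cdkn2a, which encodes an inhibitor used as a marker of senescence, stayed under 10 counts in every sample and was not tested.

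Libraries of this type do not mark the strand, so reads from overlapping genes on opposite strands cannot be told apart. Of the exon bases of Gins2, 2758 of 3900 overlap Gse1 on the other strand, so its value is uncertain. Shorter overlaps concern Ccnd1 (818 bases), Cdk4 (641), Mcm7 (385), Ccna2 (378), Ccnd2 (372), Ccnd3 (361), Ccne2 (336), Plk1 (156), Cdk6 (110), Rb1 (105) and Cdc20 (53). Matches of 50-base words to other genes, relative to exon length, reached 31.6% for Pcna (with Pcna-ps2) and 25.7% for Mcm7 (with Gm5487). For Ccnb1 they were at most 33.3% with any of Ccnb1-ps, Gm12856 and Gm8416. The counting could split reads between such genes.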

How the data were processed

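RNA from sorted hippocampal microglia of 12 mouse samples, 6 per age, was sequenced as 16 libraries. The series' design text names bcl2fastq for demultiplexing, fastx_trimmer for trimming, STAR for alignment, samtools for counts and DESeq2 at its standard settings for the authors' own comparison. The submitters' processing notes name the build mm10, and versions of these tools were not given in the sources used here. The authors deposited 1 normalized count per gene and sample, a signal that is never negative. In the 8 columns with 1 library, 100% of positive values lay within 0.1 of a whole read, which gave depths of 11.4 M reads (young 1) and 23.4 to 47.3 M (the other 7). The 4 columns with 2 libraries did not give whole reads. Normalized totals were 26.2 to 27.9 M.

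Values were used without further scaling, as log2 of the normalized count plus 1. This pseudocount understates the change of low genes, and folds differ from ratios of the printed mean counts. Genes with at least 10 normalized counts in at least 6 samples were compared between ages with limma 3.58.1 (R 4.3.3, mean-variance trend, two-sided), with Benjamini-Hochberg adjustment over all 11579 tested genes at 0.05. edgeR 4.0.16 (quasi-likelihood) and DESeq2 1.42.0 were run on the recovered reads of 8 samples. The functions were tested on simulated data. Correlations used 100000 resamples, or every arrangement within an age. Exon lengths came from GENCODE vM21 and were found for 95.2% of tested genes; promoters came from RefSeq.

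Values per sample are given for the 2 genes with the smallest p in each role and for Mki67, Top2a, Pcna, the D cyclins, Cdk4, Cdk6 and Rb1, and any called gene; of other lists, the called genes or else the 2 with the smallest p. The members and lists were chosen with earlier results of these data known. Samples singled out for high or low values, and the values without aged sample 4, were chosen after seeing the data. Alternatives were other pseudocounts, filters, scalings and tests, a replicate block, and fits without samples.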

Additional observations from a re-analysis of the deposited data

Results flagged for a closer look

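Each of the 36 genes was examined for a single sample standing apart from the other 5 of its age by Dixon's criterion. Of 72 groups of 6 samples, 5 had such a sample, and chance gives about 1 in 20 groups. Mcm3, a helicase subunit, stood at 3735 normalized counts in young sample 1, against 3094 to 3329 in the other young samples. Mcm7, another subunit, stood at 1028 in young sample 4, against 876 to 916. Rrm2, the S-phase subunit of ribonucleotide reductase, stood at 147 in young sample 1, against 41.6 to 76.4. The Polo kinase Plk1 stood at 111 in young sample 2, against 39.1 to 63.9. Aurka, an Aurora kinase, stood at 121 in aged sample 6, against 48.3 to 74.4 in the other aged samples.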

How the results depend on the processing

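In 26 alternatives to the main analysis (other pseudocounts, filters, scalings, tests and sets of samples), 0 of the 36 genes were called in either direction. The smallest adjusted p in any of them was 0.241, for Mcm6 without aged samples 5 and 6. The median log2 difference of the genes moved by less than 0.114, the spread of the samples, in every alternative. Of 904 single values, 45 changed sign, in 15 genes, and none changed its call. Over all tested genes, the count called lower, 53 in the main fit, was 30 with a replicate block. It was 28 without young 1 and aged 4, the shallowest of each age among the 8 samples with 1 library. With 1 sample left out at a time it ran from 27 to 60. It fell by over 1.5 times without young sample 1 (35), 2 (32), 4 (35), 5 (27) or 6 (30), or aged sample 2 (35). With only the 8 samples of 1 library, 67 genes were called higher and 11 lower, against 147 and 53, and edgeR on their reads gave 76 and 15, whereas DESeq2 on the same reads gave 184 and 51; the cause was not tested. Samples with the same number did not deviate together (correlations from -0.121 to 0.107, and 1 of 6 young samples matched its own number best). The number was therefore not used as a pairing in the main fit, though so few samples cannot exclude a weak one. Depth limits the rare transcripts: Ccne2 had 1 read in young sample 1 and Ccnd2 0 to 11 reads per sample.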
